A study of Mus musculus with 4 samples.

Results

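The respiratory chain of the mitochondrion is built from subunits encoded in both genomes of the cell, and its RNA was followed here in sections of tibial muscle during injury-induced heterotopic ossification (HO, bone formed in soft tissue). The genes were selected on their symbols and not on their values, although the grouping was proposed with earlier results of these data known. Symbols beginning mt-Nd, mt-Co, mt-Cytb or mt-Atp formed the mitochondrial set, and the subunit names of complexes I to V (Nduf with a letter and a digit, Sdh, Uqcr, Cox4 to Cox8 and Atp5) formed the nuclear set. Of 98 matching symbols, 96 had at least 10 unique molecular identifiers (UMIs) over the 4 sections, 13 of them mitochondrial and 83 nuclear, out of 17250 genes with that many UMIs and 32285 features in all. The 2 symbols left out, Cox7b2 and Cox8c, had 1 UMI each, and the lowest members kept were Cox6b2 with 367 UMIs and Cox4i2 with 1243.

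All 4 groups were tibial muscle of C57BL/6 mice aged 6 to 8 weeks that carried Nse-Bmp4, a Bmp4 transgene driven by the neuron-specific enolase promoter, so the uninjured group carried it too. Day 0 was uninjured muscle, and the other groups were taken 1, 3 and 7 days after cardiotoxin, a snake venom toxin that lyses muscle fibres. The labels state that 3 muscles were mixed for a group, while each group is 1 section of spatial transcriptome (10x Visium, in which RNA is captured at spots that each cover several cells). With 1 section a day there was no replicate error, no test was possible, and every interval below is an exact 95% interval that covers counting error only.

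The respiratory chain passes electrons from NADH (complex I) and succinate (complex II) through complex III to complex IV, cytochrome c oxidase, and the proton gradient that results drives complex V, the ATP synthase. Mitochondrial DNA encodes catalytic or proton-conducting subunits of every complex except complex II, and both of its strands are transcribed into long precursors that are cut into the separate mRNAs. All other subunits are nuclear gene products imported into the organelle. Skeletal muscle is rich in mitochondria, and several subunits of complex IV exist there as a muscle form in place of the form that most tissues use.

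The sections held 2107, 2667, 3029 and 3032 spots and 43871586, 16777832, 56113066 and 41832640 UMIs at days 0, 1, 3 and 7. The day 1 section was the shallowest, with a median of 6322 UMIs a spot against 21029 at day 0. Adult myofibre genes, 20 genes of the contractile apparatus and its energy supply that mark the labelled tissue, were detected in full and took 29.0%, 15.7%, 9.58% and 17.0% of the UMIs. Many of the 20 are forms of fast fibres, such as Myh4, Tnnt3 and Actn3, so the list does not stand equally for all fibre types. The summed level of 12 monocyte and macrophage genes was 429, 1619, 8015 and 2116 CPM (UMIs per 1000000 UMIs of the section), and that of 8 fibroblast genes was 7466, 953, 6009 and 24710 CPM. A separate list of 7 slow myofibre genes did not follow the adult myofibre genes, with 619, 1707, 865 and 952 CPM. Whether the sections differed in fibre type was not tested. The brown fat genes Ucp1, Cidea and Elovl3 together stayed at or below 2.07 CPM, and Ucp1 itself had 2 UMIs in all. In such sections fewer cells of a type and less RNA per cell cannot be told apart.

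Over whole sections the share of the mitochondrial set was highest at day 1, while that of the nuclear set was lower in every injured section than at day 0. The mitochondrial set took 13.5%, 17.8%, 11.7% and 11.7% of the UMIs of the sections of days 0, 1, 3 and 7. The nuclear set took 5.58%, 5.39%, 4.49% and 4.37% in the same order. For each nuclear UMI there were therefore 2.42 mitochondrial ones in uninjured muscle (2.421 to 2.428) and, by injured day, 3.30 (3.289 to 3.304), 2.60 (2.596 to 2.603) and 2.68 (2.674 to 2.683). The ratio does not depend on how sections are scaled, and on the injured days it was 1.36, 1.07 and 1.10 times its day 0 value. It did differ with the depth of the spots, and the order of the days with it. In spots of 5000 to 10000 UMIs, a limit chosen after seeing the data, the ratio was 2.66 (203 spots), 3.33 (1137), 3.27 (615) and 3.61 (785), highest at day 7. Myofibre genes at day 3 took 9.58% of the UMIs against 29.0% at day 0, so both sets were lower by far less than the myofibre genes.

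**Figure D1:**
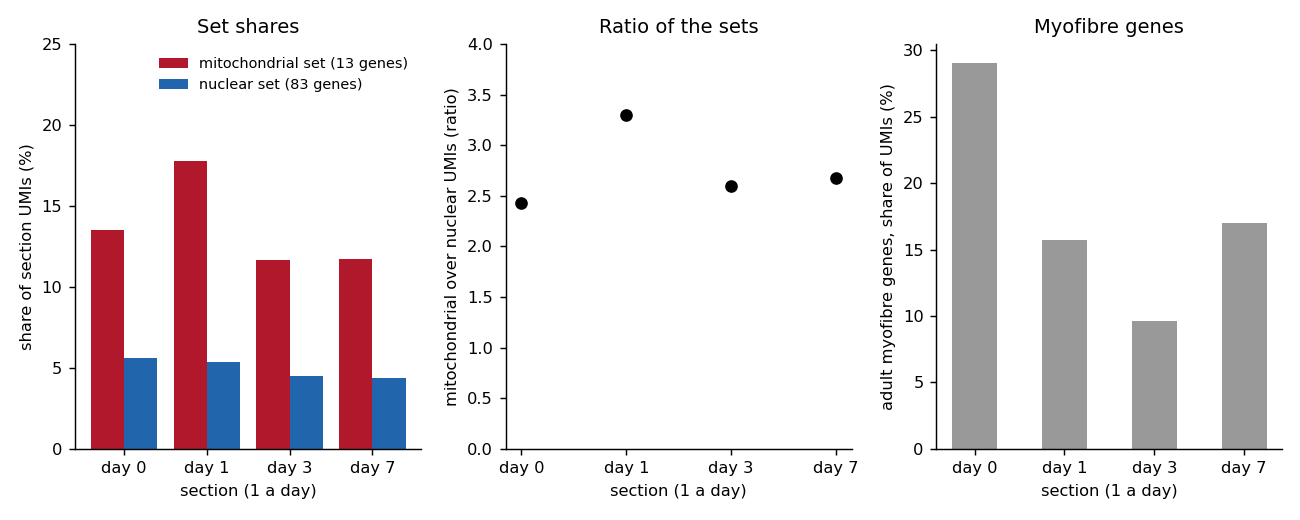
Share of section UMIs (%) in the mitochondrial and nuclear sets (left), the ratio of the sets with exact 95% counting intervals, which are narrower than the points (middle), and the share of adult myofibre genes (%, right), for the 1 section of each day. The ratio stands at 3.30 at day 1 and between 2.42 and 2.68 in the other sections, and the myofibre share is lowest at day 3.

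The same comparison by gene gave median log2 ratios of CPM to day 0 of 0.43, -0.19 and -0.15 on the 3 injured days for the mitochondrial set, and of -0.07, -0.32 and -0.33 for the nuclear set. The medians over all 17250 genes were 0.27, 0.55 and 0.64. Genes with under 3 UMIs in both sections were entered at 3 in each, which alone placed them at 1.39 at day 1. With edgeR's TMM factors every log2 ratio was lower by 0.19, 0.55 and 0.61, which brought the median of all genes to 0.08, -0.01 and 0.03. Relative to the typical gene, then, the mitochondrial set was above at day 1 only and the nuclear set was below on each day. A direction is called dependent on scaling below where it differed among CPM, TMM factors, DESeq2 size factors and a section total that leaves out haemoglobin, myofibre and mitochondrial genes. Every scaling other than CPM lowered all log2 ratios of each injured day. Only a gene above day 0 in CPM could therefore change direction, and a gene below it stayed below by construction.

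The mitochondrial genes did not move as a block. At day 1 the genes highest over day 0 were mt-Nd4l, a small complex I subunit, at 242 CPM at day 0 and 586, 366 and 258 CPM at days 1, 3 and 7, and mt-Atp8, a small complex V subunit, at 182, 366, 277 and 201 CPM. The membrane arm subunits mt-Nd5 (717, 1356, 853 and 772 CPM) and mt-Nd2 (7284, 13014, 7657 and 6907 CPM) followed. Their log2 ratios at day 1 were 1.27 (mt-Nd4l), 1.01 (mt-Atp8), 0.92 (mt-Nd5) and 0.84 (mt-Nd2). All 4 were highest at day 1. At day 7 they lay within 0.15 of day 0 on the log2 scale in CPM but at -0.52, -0.46, -0.50 and -0.68 with TMM factors, and for all except mt-Nd2 the sign then depended on scaling.

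The abundant catalytic genes moved less. The complex IV core subunits mt-Co1 (25625, 34317, 22131 and 19440 CPM) and mt-Co3 (27315, 34784, 22498 and 25444 CPM) and the complex V proton channel subunit mt-Atp6 (19247, 25992, 17505 and 16076 CPM) were higher at day 1 and lower at days 3 and 7 than at day 0. The complex III gene mt-Cytb (13704, 17823, 11556 and 11242 CPM) and the complex I genes mt-Nd1 (9397, 13314, 8614 and 8496 CPM) and mt-Nd4 (9450, 13144, 8261 and 8789 CPM) showed the same order of signs. The copper-binding complex IV subunit mt-Co2 had 16877, 18523, 13109 and 14614 CPM, and the sign of its small day 1 difference depended on scaling.

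The exceptions at day 1 were mt-Nd3 (5246, 4425, 3797 and 4739 CPM), a complex I subunit, and mt-Nd6 (12.3, 10.5, 9.04 and 10.2 CPM), the only protein gene on the light strand. Both were below day 0 in every injured section under all 4 scalings, although for mt-Nd6 at day 1, with 176 UMIs, the interval of the log2 ratio included 0 (-0.23, -0.48 to 0.02). Across the 4 scalings 10 of the 13 genes were higher at day 1 and 9 of 13 lower at day 3. At day 7, 10 of 13 were lower.

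On the mitochondrial genome (RefSeq annotation of GRCm38.p6, the build named mm10 in the processing notes) mt-Atp8 spans MT:7766-7969 and shares 43 bases with mt-Atp6 at MT:7927-8607. The gene mt-Nd4l (MT:9877-10173) shares 7 bases with mt-Nd4 (MT:10167-11544), and mt-Nd5 (MT:11742-13565) shares 14 with mt-Nd6 (MT:13552-14070), which lies on the other strand. Members of the first and second of these pairs lie on the same strand and share bases of the same RNA, so the split of UMIs between them depends on the counting. The genes mt-Nd4l and mt-Atp8 were among the least abundant, with 0.179% and 0.134% of the UMIs of the set at day 0, and leaving out both and mt-Nd6 gave ratios of the sets of 2.42, 3.28, 2.58 and 2.67. Spearman's rho between gene length and the log2 ratio was 0.04, 0.01 and -0.20 at days 1, 3 and 7 (n = 13 genes of the same libraries, a description).

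**Figure D2:**
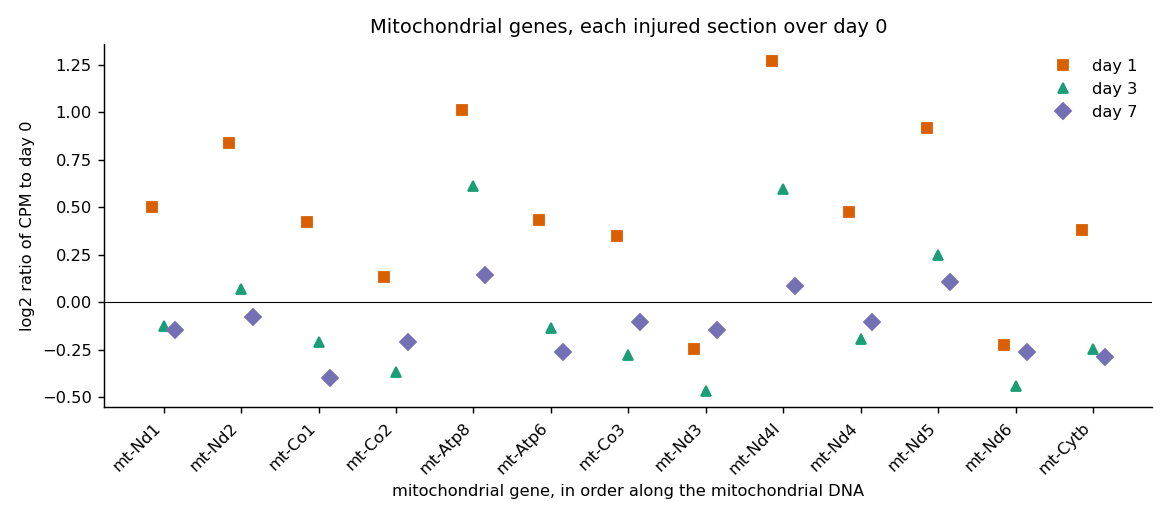
Log2 ratio of CPM to day 0 (vertical axis) for the 13 mitochondrial genes in their order along the mitochondrial DNA, with 1 point for each injured section. At day 1, 11 of 13 points lie above 0, and mt-Nd3 and mt-Nd6 lie below 0 on every day.

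Among the 83 nuclear members few were past 2-fold in either direction in CPM. At day 1, 1 member was at least 2-fold higher than at day 0 (all genes 23.7%) and 2 were at least 2-fold lower (all genes 9.93%). At day 3 there were 2 higher (31.9%) and 1 lower (8.53%), and at day 7 there was 1 higher (32.0%) and none lower (2.13%). In CPM each of these shares of the 83 members was below that of all genes. The 23.7% at day 1 includes genes with under 3 UMIs in both sections, and their number was not counted. Entry at 3 UMIs alone gave them a log2 ratio of 1.39, as for Elovl3 with 1 UMI in each. The members were far more abundant, so this share is not a like background for them. The counts depended on scaling, since TMM factors gave 0 higher and 7 lower at day 1 (8.43% against 12.96% of all genes). They gave 25 lower at day 3 (30.1% against 16.7%) and 35 lower at day 7 (42.2% against 6.73%), so that the share of lower members was then above that of all genes. In the CPM scale 48, 70 and 75 of the 83 members were below day 0 at days 1, 3 and 7. Of all 17250 genes 6565, 4999 and 2634 were below it. The members below day 0 in CPM were below it under the 4 scalings by construction, since the others lower every log2 ratio.

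The 36 nuclear members of complex I had median log2 ratios of -0.06, -0.34 and -0.29 at days 1, 3 and 7. The lowest at days 1 and 3 was Ndufs1, the largest iron-sulphur subunit and the entry path of electrons, with 269, 120, 136 and 193 CPM at days 0, 1, 3 and 7 (log2 ratios -1.17, -0.98 and -0.48). The flavoprotein subunit Ndufv1, named here after its values were seen, stood at 287, 208, 209 and 246 CPM. The accessory subunit Ndufb4 was the highest of complex I at day 1 (369 and 566 CPM, log2 ratio 0.62), but it has near-identical copies in the genome and its count is uncertain for that reason.

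Complex II, succinate dehydrogenase, has no mitochondrially encoded subunit, and its 4 genes were all below day 0 in every injured section. The flavoprotein Sdha had 452, 240, 252 and 311 CPM and the iron-sulphur protein Sdhb 379, 294, 274 and 244 CPM. The membrane anchors Sdhc (235, 170, 181 and 196 CPM) and Sdhd (161, 121, 156 and 119 CPM) were also lower, Sdhd by only 0.04 on the log2 scale at day 3. The complex II median was -0.44, -0.42 and -0.48, against -0.07, -0.32 and -0.33 for all nuclear members.

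In complex III the core proteins were lower at day 1 than at day 0, and most small subunits were not in CPM. Uqcrc1, a core protein, stood at 629, 327, 344 and 475 CPM (log2 ratios -0.94, -0.87 and -0.40). The other core protein Uqcrc2 (321, 182, 193 and 233 CPM) and the Rieske iron-sulphur protein Uqcrfs1 (521, 349, 302 and 358 CPM), named after their values were seen, were also lower in each injured section. The small subunits Uqcrb, Uqcrh, Uqcrq and Uqcr10, also named after their values were seen, had log2 ratios between 0.11 and 0.23 at day 1 and below 0 at days 3 and 7, and for Uqcrh, Uqcrq and Uqcr10 the sign at day 1 depended on scaling. The small subunit Uqcr11 had 985, 955, 833 and 847 CPM, with a log2 ratio of -0.04 at day 1.

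In complex V the catalytic head subunit Atp5a1 had 1860, 986, 1055 and 1533 CPM, and its partner Atp5b, named after its values were seen, had 2564, 1485, 1558 and 1956 CPM. Subunit c, which forms the rotating ring, is encoded by 3 genes whose mature proteins are the same, and they moved apart. Atp5g3 was at 1568, 613, 812 and 1084 CPM (log2 ratios -1.36, -0.95 and -0.53) and was the lowest of the nuclear members at day 1. Atp5g1 was at 875, 899, 684 and 559 CPM, the lowest of the 3 at day 7 with a log2 ratio of -0.64. Atp5g2 was at 367, 570, 525 and 446 CPM (log2 ratios 0.63, 0.51 and 0.28), higher than at day 0 under all 4 scalings at day 1 and dependent on scaling at days 3 and 7.

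**Figure D3:**
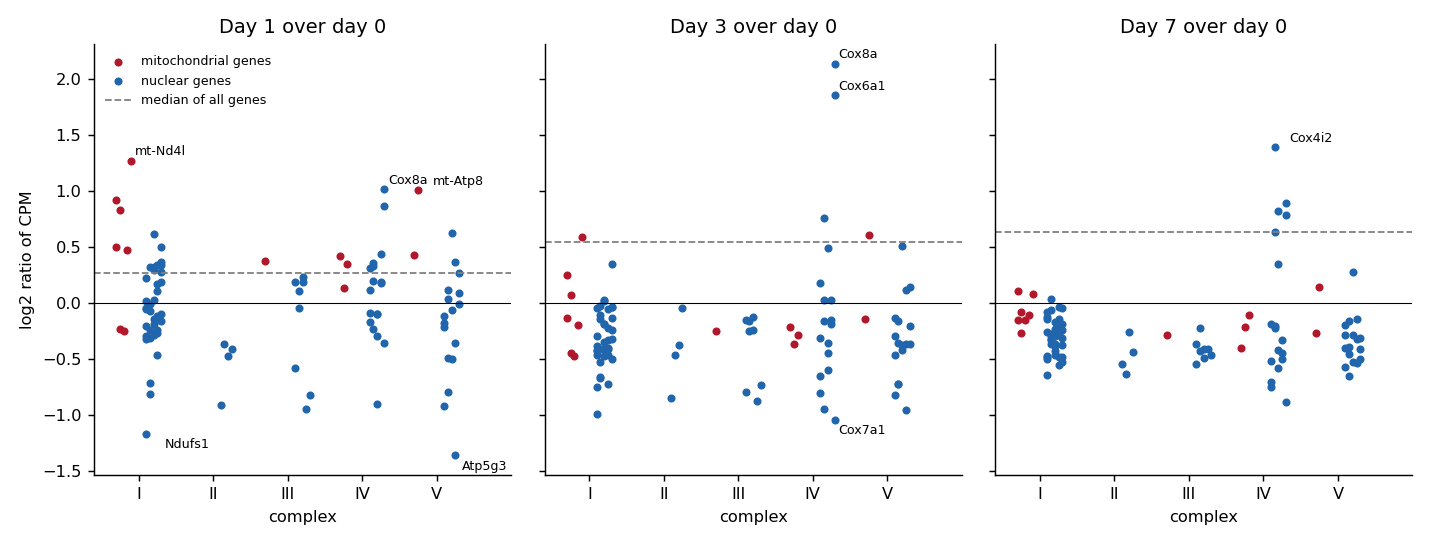
Log2 ratio of CPM to day 0 (vertical axis) for the 96 members by respiratory complex, mitochondrial genes in red and nuclear genes in blue, with 1 panel for each injured section and the median of all genes dashed. Labelled points are past 2-fold, and the widest spread is among the nuclear genes of complex IV at day 3, from -1.04 (Cox7a1) to 2.14 (Cox8a).

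Complex IV held the nuclear members furthest from day 0 at day 3, which were isoforms of its small subunits. Cox8a and Cox6a1, the forms used by most tissues, were the nuclear members highest over day 0 at days 1 and 3. Cox8a stood at 140 CPM at day 0 and at 284, 617 and 241 CPM at days 1, 3 and 7 (log2 ratios 1.02, 2.14 and 0.79). Cox6a1 stood at 110, 201, 398 and 204 CPM (log2 ratios 0.87, 1.86 and 0.89). Both were higher than at day 0 in each injured section under all 4 scalings, and at day 3 by 4.41-fold and 3.62-fold.

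The muscle isoforms went the other way at days 3 and 7. Cox8b had 1226, 1094, 706 and 730 CPM, Cox7a1 had 714, 559, 347 and 389 CPM and Cox6a2 had 1921, 2386, 1225 and 1184 CPM, so that Cox6a2 alone was above day 0 at day 1. Cox7a2, the common counterpart of Cox7a1, had 521, 565, 592 and 366 CPM (log2 ratios 0.12, 0.19 and -0.51), with a sign at days 1 and 3 that depended on scaling. The related Cox7a2l, which is part of respiratory supercomplexes, was at 109 CPM at day 0 and among the highest members at day 3 (184 CPM, log2 ratio 0.76) and day 7 (170 CPM, log2 ratio 0.64).

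As ratios within a section, which no scaling can alter, Cox6a2 over Cox6a1 was 17.5 in uninjured muscle (17.0 to 18.0), then 11.9 (11.4 to 12.3), 3.08 (3.03 to 3.12) and 5.80 (5.67 to 5.93). Cox8b over Cox8a was 8.77 (8.54 to 9.01), 3.86 (3.74 to 3.98), 1.14 (1.13 to 1.16) and 3.03 (2.96 to 3.10). Cox7a1 over Cox7a2 was 1.37 (1.35 to 1.40), 0.989 (0.961 to 1.02), 0.587 (0.576 to 0.597) and 1.06 (1.04 to 1.09). All 3 ratios were highest at day 0 and lowest at day 3, when the ratio of Cox8b to Cox8a was 7.67 times lower than at day 0.

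The promoters of 4 of these genes are shown because isoforms of complex IV subunits differed in direction. Only Cox8a and Cox8b are isoforms of the same subunit. Cox6a2 had no promoter entry and Cox7a2 is not shown, so Cox6a1 and Cox7a1 stand without their counterparts. The sequences are RefSeq promoters on GRCm38, from 250 bases before to 50 after the start, read 5′ to 3′ on the strand of the gene. Capitals mark matches on either strand to motifs of the type bound by nuclear respiratory factor 1 (NRF1), to the core of ETS factor sites, to an E-box and to a TATA box, whose letters follow the sequences. Cox6a1 is at chr5:115348909-115349208 (minus strand), Cox8a at chr19:7217567-7217866 (minus strand), Cox7a1 at chr7:30183921-30184220 (plus strand) and Cox8b at chr7:140900397-140900696 (minus strand).
Cox6a1: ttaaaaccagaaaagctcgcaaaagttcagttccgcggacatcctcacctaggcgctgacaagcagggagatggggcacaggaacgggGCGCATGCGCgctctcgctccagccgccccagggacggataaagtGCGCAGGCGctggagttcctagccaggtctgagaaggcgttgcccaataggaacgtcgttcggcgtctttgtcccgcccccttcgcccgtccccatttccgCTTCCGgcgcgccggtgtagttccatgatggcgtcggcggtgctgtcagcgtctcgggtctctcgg
Cox8a: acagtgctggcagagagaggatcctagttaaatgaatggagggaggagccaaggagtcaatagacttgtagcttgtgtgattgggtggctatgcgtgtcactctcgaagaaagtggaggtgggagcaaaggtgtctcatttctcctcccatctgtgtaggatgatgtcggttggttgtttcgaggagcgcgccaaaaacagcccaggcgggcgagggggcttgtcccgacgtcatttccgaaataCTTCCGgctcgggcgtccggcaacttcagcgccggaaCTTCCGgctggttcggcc
Cox7a1: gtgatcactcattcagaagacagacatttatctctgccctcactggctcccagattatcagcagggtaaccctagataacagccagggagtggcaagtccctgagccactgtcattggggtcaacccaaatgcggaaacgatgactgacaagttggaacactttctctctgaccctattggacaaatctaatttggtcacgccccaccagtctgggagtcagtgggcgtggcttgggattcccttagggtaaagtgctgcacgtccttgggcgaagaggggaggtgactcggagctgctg
Cox8b: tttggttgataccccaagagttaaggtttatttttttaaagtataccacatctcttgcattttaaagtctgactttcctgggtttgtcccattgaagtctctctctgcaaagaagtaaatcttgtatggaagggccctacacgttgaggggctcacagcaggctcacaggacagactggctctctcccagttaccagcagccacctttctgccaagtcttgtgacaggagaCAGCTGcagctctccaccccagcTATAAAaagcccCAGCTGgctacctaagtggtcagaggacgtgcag

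The Cox6a1 window held 2 stretches of the NRF1 type and 1 ETS core, and the Cox8a window held 2 ETS cores. The Cox8b window held 2 E-boxes and 1 TATA box and the Cox7a1 window none of the 4 motifs. The NRF1 type, searched as GCGCANGCG, was found in 28.8% of 73 promoters of 68 nuclear members matched to the table, against 6.25% of all 32851 promoters. The ETS core CTTCCG was found in 41.1% of the member promoters against 16.9% of all promoters. The E-box CAGCTG was found in 8.22% against 16.3%, and for the TATA box TATAAA the shares were 10.96% and 13.6%. These matches describe the letters of the windows, and no binding was measured here.

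**Figure D4:**
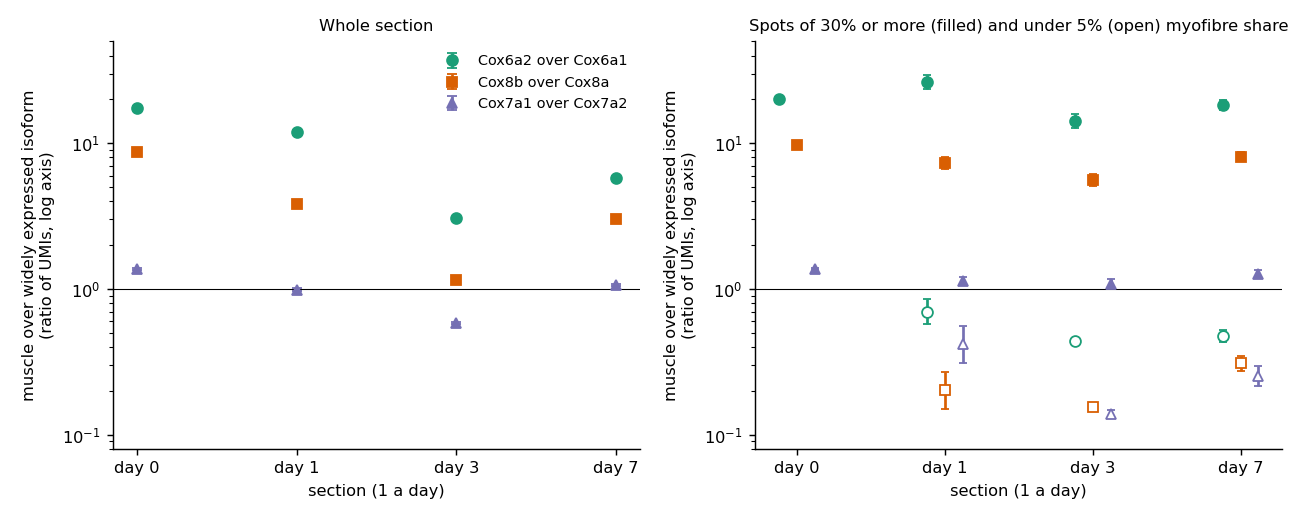
Ratio of the muscle isoform to the widely expressed isoform of 3 complex IV subunits (log axis, ratio of UMIs, exact 95% counting intervals) in whole sections (left) and in spots grouped by their myofibre share (right; filled, 30% or more; open, under 5%). In whole sections all 3 ratios are lowest at day 3, and in spots under 5% every ratio lies below 1.

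A further pair of complex IV isoforms showed another pattern. Cox4i2, the form induced by low oxygen and best known from lung, had 276, 90, 184 and 693 UMIs (6.29, 5.36, 3.28 and 16.6 CPM), while the common Cox4i1 had 1590, 1500, 1285 and 1403 CPM. Cox4i2 was the 1 nuclear member past 2-fold at day 7, with a log2 ratio of 1.40 in CPM and of 0.79, under 2-fold, with TMM factors. In that section it reached 42.4 CPM in spots with a myofibre share under 5% and 4.18 CPM in spots with 30% or more. Ndufa4l2, a hypoxia-responsive relative of the complex IV subunit Ndufa4, was at 25.9, 21.2, 20.3 and 33.1 CPM against 1351, 1703, 1211 and 1163 CPM for Ndufa4, so the ratio of the pair was highest at day 7 (0.0285, 0.0270 to 0.0300).

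When spots were grouped by myofibre share, the near-equal section ratios of days 0, 3 and 7 separated into opposite parts. The share was the fraction of UMIs outside both sets that came from the 20 myofibre genes, in spots with at least 1000 UMIs. In spots with under 5%, the ratio of mitochondrial to nuclear UMIs was 1.88 (133 spots), 0.995 (761 spots) and 0.915 (162 spots) on the injured days, and day 0 had no such spot. In spots with 30% or more it was 2.44 in uninjured muscle (1836 spots) and then 3.19 (354 spots), 3.797 (255 spots) and 3.78 (630 spots). The fibre-rich spots of days 3 and 7 thus stood above those of day 0, and the fibre-poor spots of the same sections stood below every group of day 0.

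Between the quartiles of its spots, fibre-rich tissue of days 3 and 7 did not overlap that of day 0. The quartiles of the spot ratio in fibre-rich spots were 2.19 and 2.81 without injury, 3.31 and 4.21 at day 3 and 3.21 and 4.84 at day 7. At day 1 they were 2.48 and 4.70 and overlapped those of day 0. In fibre-poor spots they were 1.64 and 2.87, 0.578 and 1.45, and 0.684 and 1.09 on the injured days. Spots of a section share their tissue and library and are not replicates of a day.

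It was the mitochondrial set that carried most of the range. In fibre-poor and fibre-rich spots it took 5.18% and 19.5% of the UMIs on the first injured day, 3.50% and 16.5% on the second, and 1.93% and 18.5% on the last. The nuclear set took 2.75% and 6.11%, 3.52% and 4.33%, and 2.11% and 4.91% in the same order. At day 0 the fibre-rich spots had 13.5% and 5.53%. Groups between these bounds fell in order at days 3 and 7, with ratios of 2.67 (5 to 15%) and 3.52 (15 to 30%) at day 3 and of 1.69 and 2.65 at day 7, whereas at day 1 they were 3.39 and 3.32.

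**Figure D5:**
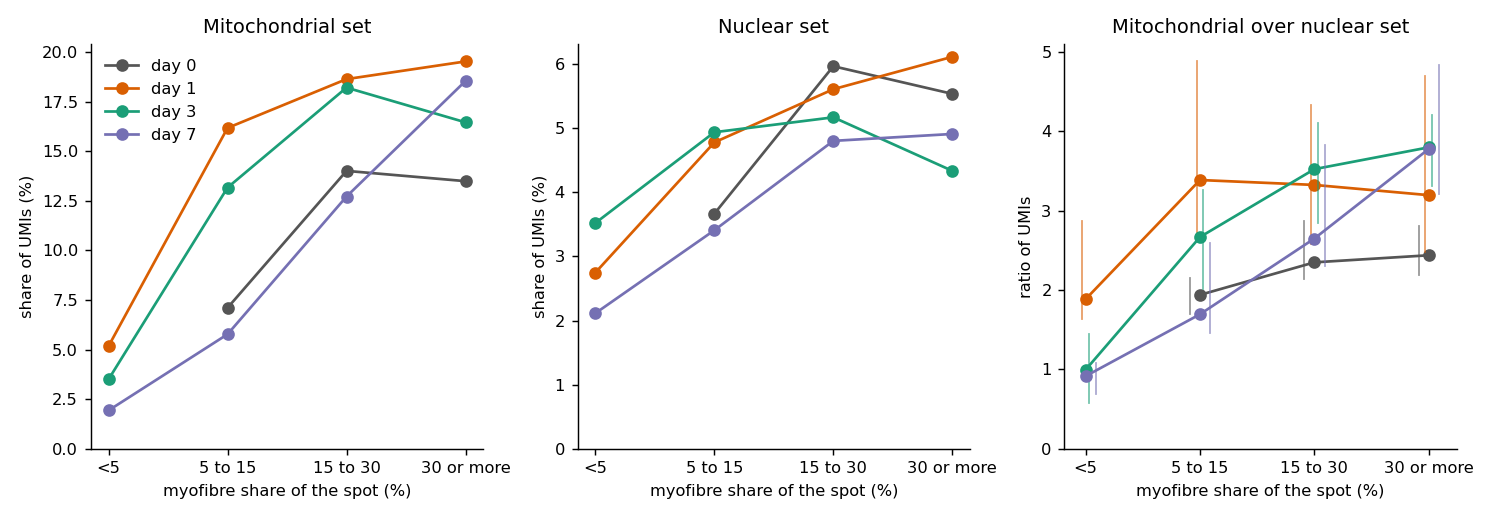
Share of UMIs (%) in the mitochondrial set (left) and the nuclear set (middle) and the ratio of the sets (right) in spots grouped by myofibre share (horizontal axis, %), 1 line for each section. Points are sums over the spots of a group and thin vertical lines span the quartiles of single spots, and the ratio runs from 0.995 to 3.797 at day 3 and from 0.915 to 3.78 at day 7 but only from 1.94 to 2.44 at day 0.

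Gene by gene, all 13 mitochondrial members were higher in fibre-rich than in fibre-poor spots at days 1, 3 and 7, with median log2 ratios of 1.92, 2.41 and 3.399. Of the 83 nuclear members 76, 64 and 77 were higher, with medians of 1.07, 0.32 and 1.21. This comparison was made for the members only, so the counts have no background of all genes and describe the spots. The muscle isoform Cox6a2 was unequal on each day, at 353 CPM in fibre-poor and 3382 CPM in fibre-rich spots on the first injured day, 265 and 1781 CPM on the second, and 206 and 1636 CPM on the last. Cox8a ran the other way, at 565 and 195 CPM, 881 and 205 CPM, and 351 and 123 CPM.

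Compared with day 0 within fibre-rich spots only, the sets parted. The mitochondrial members had median log2 ratios of 0.60, 0.27 and 0.51 at days 1, 3 and 7, and 11, 12 and 13 of the 13 were higher. The nuclear members had medians of 0.13, -0.31 and -0.18, and 53, 7 and 12 of the 83 were higher. The medians of all 17250 genes in these spots were 0.09, 0.28 and 0.22, and 9176, 11035 and 11704 of these genes were higher. The spots held 38350722 UMIs at day 0 and 2709317, 2579990 and 7409928 on the injured days. Genes with under 3 UMIs were entered at 3, so those scarce in both sums were raised by the totals alone. Where the sets stood against the typical gene in these spots can therefore not be read from these medians and counts. In these spots Atp5g3 was at 1528, 619, 657 and 1181 CPM and Ndufs1 at 265, 131, 152 and 231 CPM, which is the order of the whole sections. Cox8a (126, 195, 205 and 123 CPM) and Cox6a1 (96.8, 129, 126 and 88.9 CPM) differed far less there than over whole sections, and mt-Nd3 (5247, 4584, 4912 and 7494 CPM) was above day 0 at day 7.

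The isoform ratios followed the spots as well. In fibre-rich spots Cox6a2 over Cox6a1 was 19.98, 26.3, 14.2 and 18.4 and Cox8b over Cox8a was 9.71, 7.28, 5.59 and 8.06 at days 0, 1, 3 and 7. In fibre-poor spots the first ratio was 0.700, 0.436 and 0.474 and the second 0.203, 0.154 and 0.309 at days 1, 3 and 7. Within a section the isoforms differed more between the spot groups than the fibre-rich spots did between days.

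Other measures moved with these groups. The median depth of fibre-rich spots was 21027, 7699, 9711 and 10861 UMIs at days 0, 1, 3 and 7, and that of fibre-poor spots was 3468, 25106 and 19643 at days 1, 3 and 7. In spots of 5000 to 10000 UMIs, a comparison chosen after seeing the data, the fibre-rich ratio was 2.60, 3.24, 3.74 and 4.23 at days 0, 1, 3 and 7, and the fibre-poor ratio was 1.501 (20 spots), 1.74 (70 spots) and 1.06 (12 spots), so fibre-rich spots stayed above the fibre-poor spots of their section and, on the injured days, above those of day 0. The fibre-poor value of day 3 was 1.74 at this depth against 0.995 over all depths, and it was then no longer below that of day 1. Fibre-poor spots had 14275 CPM of macrophage genes at day 3 against 1576 CPM in fibre-rich spots, and 89849 CPM of fibroblast genes at day 7 against 4351 CPM. The nuclear RNA Malat1 was at 394, 196, 285 and 527 CPM in fibre-rich spots at days 0, 1, 3 and 7, and the part of these measures in the result was not tested.

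Across spots thinned to 2000 UMIs, Spearman's rho between the mitochondrial set and the myofibre genes was -0.47 in uninjured muscle (2090 spots) and 0.16 (2154 spots), 0.59 (3020 spots) and 0.61 (2948 spots) on the injured days. Between the nuclear set and the myofibre genes it was -0.30, 0.56, 0.35 and 0.45, and between the sets 0.40, 0.27, 0.64 and 0.55. These are shares of the same UMIs in the same library, so that a larger share of either leaves less for the other, and the values describe the sections. With each level taken per UMI outside both sets, the day 0 values were -0.26 and -0.22, and at day 1 the rho between the mitochondrial set and myofibre genes was 0.01 to 0.42 over the other settings. The myofibre list holds many fast-fibre genes and is not a measure of muscle content alone. At day 0 the tenth of spots richest in slow genes had 24.1% myofibre genes against 29.7% in other spots. Their mitochondrial share was 16.5% against 13.2%. The part of fibre type in the negative rho was not tested.

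At day 0, 87.2% of the grouped spots were fibre-rich. Over all 2090 thinned spots of that section both sets followed the slow myofibre genes, with rho of 0.29 for the mitochondrial and 0.24 for the nuclear set. When the fibre-rich spots of day 0 were ordered by their slow gene share and divided into 4 groups of 459, the mitochondrial set took 12.4%, 12.5%, 13.003% and 15.8% of the UMIs and the nuclear set 5.20%, 5.32%, 5.46% and 6.10%. The ratio of the sets was 2.39, 2.36, 2.38 and 2.59. The group richest in slow genes also had the most Myh2, the myosin of oxidative fast fibres (1385 CPM against 115 in the lowest group), and Mb, myoglobin (1952 against 440 CPM), and the least Myh4, the myosin of the fastest fibres (27216 against 41059 CPM). In the injured sections Myh2 and Mb were again higher in the group richest in slow genes than in the lowest, but the mitochondrial share was not. It was 22.8% in the lowest and 17.4% in the highest group at day 1, 16.4% and 16.1% at day 3, and 20.1% and 15.5% at day 7. The lowest group had 0 CPM of slow genes at days 1 and 3, and the second group 21.7 and 37.6 CPM. Spots without a slow UMI were thus tied and divided arbitrarily between these groups. The second group had a mitochondrial share of 19.7% at day 1, so the 22.8% does not stand for all such spots.

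Spots richest in macrophage genes at day 3, and in fibroblast or chondrogenic genes at day 7, had little of the mitochondrial set. At day 3 the tenth of spots richest in macrophage genes had 2.59% mitochondrial and 3.35% nuclear UMIs (ratio 0.773), against 13.3% and 4.69% (ratio 2.84) in the other spots. At day 7 the tenth richest in fibroblast genes had 2.95% and 2.27% (ratio 1.30) against 12.8% and 4.62% (ratio 2.76), and the tenth richest in chondrogenic genes had 3.96% and 2.50% (ratio 1.58). All 3 groups were also poor in myofibre genes. These took 1.52% of UMIs (11.1% in other spots), 4.53% (18.5%) and 6.37% (18.2%) in the order above. The part of the myofibre share in these values was not tested. Spots rich in adipocyte genes did not have such low ratios of the sets at days 3 and 7. The 302 spots richest in them had 12.9% (ratio 3.03) against 11.6% (ratio 2.58) elsewhere at day 3. Their myofibre share was also higher there, at 15.6% against 9.24%. At day 7 the 302 richest had 10.1% (ratio 2.89) against 11.8% (ratio 2.67). At day 1, however, the 239 spots richest in adipocyte genes were low, with 9.84% (ratio 2.55) against 18.2% (ratio 3.32). The 210 richest at day 0 had 11.8% (ratio 2.30) against 13.7% (ratio 2.43). The 302 spots richest in genes of regenerating muscle at day 7 had 7.57% mitochondrial but 5.02% nuclear UMIs. Their ratio was 1.51 against 2.98 elsewhere, although their myofibre share of 18.0% was close to the 16.8% of the other spots. The ratio of such spots was also lower at day 3 (1.68 against 2.77) and day 0 (2.40 against 2.43). It was higher at day 1 (3.91 against 3.24). In this list Actc1 held 926 of 1904 CPM at day 7 and 6066 of 6197 CPM at day 0. Its log2 ratio at day 7 was -2.71, while 10 of the 11 genes were above day 0. Whether these spots hold regenerating muscle was not tested.

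Genes that work with the chain but lie outside both sets were read from lists. Of 19 genes of the TCA cycle and pyruvate entry, 3, 5 and 0 were at least 2-fold lower at days 1, 3 and 7 and none was higher, with median log2 ratios of -0.74, -0.70 and -0.39. Over all genes 9.93%, 8.53% and 2.13% were 2-fold lower and 23.7%, 31.9% and 32.0% were 2-fold higher, which is the background of this and the following counts in CPM. The 23.7% at day 1 includes the genes under 3 UMIs described above. The lowest were Pdha1, a subunit of pyruvate dehydrogenase (514, 197, 214 and 506 CPM), and Dlat of the same complex (157, 61.6, 86.7 and 117 CPM) at day 1. The pyruvate carrier gene Mpc1 was higher at day 1 (236 and 337 CPM). Of 17 genes of fatty acid oxidation, 1, 2 and 0 were 2-fold lower (medians -0.50, -0.43 and -0.12), with Cpt1b, the muscle carnitine transferase, at 141, 56.3, 57.0 and 114 CPM.

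Among 8 genes that serve the chain directly, the adenine nucleotide carriers repeated the contrast of muscle and common forms. Slc25a4, the muscle carrier, was at 4063, 2325, 1655 and 2490 CPM, and Slc25a5, the common carrier, at 87.3, 138, 317 and 103 CPM. Ckmt2, the mitochondrial creatine kinase of muscle, was at 1209, 519, 490 and 576 CPM, while Mb was at 1175, 1230, 1762 and 1884 CPM. Cytochrome c1 (Cyc1) was at 659, 371, 378 and 414 CPM and cytochrome c (Cycs) at 526, 499, 465 and 309 CPM.

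The machinery that makes and assembles the chain lay near or above its day 0 level in CPM. The 78 genes of the mitochondrial ribosome had medians of 0.30, 0.36 and -0.002 at days 1, 3 and 7, with 4, 3 and 0 genes at least 2-fold higher and none lower, led by Mrpl52 (107, 252, 307 and 152 CPM). The 46 assembly factors had medians of -0.06, 0.15 and 0.04, with 0, 2 and 0 genes at least 2-fold higher and 3, 1 and 1 lower. The 23 genes that copy, transcribe and process mitochondrial DNA and RNA had medians of 0.12, 0.17 and 0.12, and none of these 23 was past 2-fold. All of these medians lay below that of all genes except that of the mitochondrial ribosome at day 1, which was also the only median of the 3 lists to stay above 0 with TMM factors. Differences of single genes in these and the preceding lists that lie within the shift of the scalings change sign with it, as for Slc25a5 at day 7 and Mb at day 1. In the list of 23 genes Lrpprc, which stabilises mitochondrial mRNA, was at 50.1, 25.4, 38.8 and 51.5 CPM and its partner Slirp at 83.8, 105, 129 and 90.9 CPM.

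Of 12 regulators of mitochondrial biogenesis, 3, 2 and 1 were at least 2-fold lower and 1 was 2-fold higher on each day. Ppargc1a, the coactivator PGC-1α, was at 11.4, 6.14, 3.83 and 8.70 CPM, and Perm1, a muscle regulator induced by it, at 54.2, 15.5, 21.8 and 21.0 CPM. Pprc1, a coactivator linked to cell growth, was at 11.3, 19.7, 30.05 and 26.7 CPM. Of 9 mitophagy genes 1, 0 and 1 were 2-fold higher, and 1 was 2-fold lower at day 1. The higher gene at day 1 was the cargo receptor Sqstm1, at 274, 723, 403 and 453 CPM. At day 7 it was Map1lc3a, at 249, 302, 207 and 548 CPM.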

How the data were processed

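The authors deposited UMI counts, not normalized, for each gene at each capture spot of fresh-frozen 10 µm sections of 4 groups. The labels name Cell Ranger 5.0.0 and the file headers Space Ranger 1.2.0, the methods of the study name another version, and the processing notes name the build mm10. Spots over tissue had been selected before deposit. No doublet caller applies to spots, and 4 sections share between 1539 and 2311 barcodes, which are array positions.

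The members and lists were chosen with earlier results of these data known. Counts were summed per section and divided by the section total (CPM). A gene under 3 UMIs was entered at 3 in log2 ratios. Ratios have exact 95% conditional intervals. Named genes were all 13 mitochondrial genes, 5 isoform pairs, the 4 Sdh genes and, for each injured day, the 4 highest and 4 lowest nuclear members at 50 CPM or more, with the 2 highest and 2 lowest of a context list at 10 CPM or more available as examples. Spots were thinned to 2000 UMIs in 20 draws (seed 1). Scaling by edgeR and DESeq2, depth limits and gene filters were tried as alternatives. Gene positions matched by symbol or synonym for all 83 nuclear members. Calculations were tested on simulated data. R 4.3.3 ran edgeR 4.0.16 and DESeq2 1.42.0, and Python 3.11.15 ran SciPy 1.17.1, NumPy 2.4.6 and pandas 2.3.3.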

Additional observations from a re-analysis of the deposited data

How the results depend on the processing

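No paired analysis was possible because each day has 1 section. Of 174 values recomputed, 69 stayed within their counting interval (for rho, the range over draws) or within 1.5 times the count, and 105 moved. No median or rho changed sign, and the ratios and counts could not, since they cannot be below 0. A median below 0 could not turn positive under the other scalings, which lower every log2 ratio. Apart from the effect of a scaling on its own values, the causes were not tested. The limit of 100 UMIs a member moved none of the values it was applied to, and that of 1000 UMIs a spot moved 1, the ratio of spots with a myofibre share of 5 to 15% at day 1, which was 3.41 over all spots against 3.39.

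For days 0, 1, 3 and 7, the ratio of the sets was 2.42, 3.28, 2.58 and 2.67 without mt-Nd4l, mt-Atp8 and mt-Nd6, 2.61, 3.56, 2.74 and 2.83 without Cox6a2, Cox7a1 and Cox8b, and 2.66, 3.33, 3.27 and 3.61 in spots of 5000 to 10000 UMIs, chosen after seeing the data. For days 1, 3 and 7, the mitochondrial median log2 ratio was 0.24, -0.75 and -0.75 with TMM factors, 0.24, -0.76 and -0.78 with DESeq2 size factors, 0.22, -0.65 and -0.46 with a total that leaves out haemoglobin, myofibre and mitochondrial genes, and 0.39, -0.21 and -0.21 from summed UMIs. The nuclear median was -0.26, -0.88 and -0.94, then -0.26, -0.89 and -0.97, then -0.28, -0.78 and -0.64 under the first 3 of these. Nuclear members at least 2-fold lower numbered 7, 25 and 35 with TMM factors (all genes 12.96%, 16.7% and 6.73%) and 9, 18 and 3 with that total (all genes 13.3%, 15.1% and 3.70%), and those higher were 0 at day 1 under both and 0 at day 7 with TMM factors.

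In fibre-rich spots the ratio was 3.31, 3.77 and 3.96 at days 1, 3 and 7 with Acta1 and Ckm as the myofibre list, and in fibre-poor spots 0.978 and 0.887 at days 3 and 7. In spots of 5000 to 10000 UMIs, chosen after seeing the data, it was 2.60, 3.24, 3.74 and 4.23 in fibre-rich spots at days 0, 1, 3 and 7 and 1.501, 1.74 and 1.06 in fibre-poor spots at days 1, 3 and 7.

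For days 0, 1, 3 and 7, rho between the sets was 0.32, 0.31, 0.58 and 0.50 thinned to 1000 UMIs, 0.44, 0.17, 0.67 and 0.58 thinned to 4000, and 0.64, 0.57, 0.83 and 0.72 per UMI outside both sets. For the mitochondrial set and myofibre genes it was -0.45, 0.24, 0.59 and 0.59, then -0.49, 0.011, 0.61 and 0.63, then -0.26, 0.42, 0.65 and 0.78. For the nuclear set it was -0.26, 0.59, 0.31 and 0.42, then -0.36, 0.48, 0.38 and 0.47, then -0.22, 0.70, 0.49 and 0.66.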
